A study of Mus musculus with 5 samples.

Results

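Forkhead transcription factors were followed through mouse cardiac differentiation in culture. The members were all array probes named Fox followed by 1 letter and a number, or by the older Fkh, Hfh and Hnf3 names, a rule that reads names and no measured value. They comprised 45 probes for 35 genes, of 28845 probes for 24888 genes and unnamed transcripts on the array. Stem cells were grown as embryoid bodies, aggregates in which heart development can be followed outside the embryo, and RNA came from 4 marker-positive populations. The starting population, at day 0, was the undifferentiated stem cells that carry Rex1, the product of Zfp42. Mesoderm was taken at day 4.5 in 2 forms, an early one marked by Bra (Brachyury, the product of T) and a cardiac one marked by Flk1 (the product of Kdr), and cardiac progenitors marked by Nkx2.5, the product of Nkx2-5, were taken at day 7.5. The labels do not name the stem cell line, its genotype or strain, the way cells were isolated or the number of cultures behind each RNA. Pairs of populations were hybridised on 5 2-colour arrays of 30000 spots. Rex1 RNA was always labelled with Cy3 and Nkx2.5 RNA always with Cy5, while Bra and Flk1 RNA carried Cy5 against Rex1 and Cy3 against Nkx2.5.

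Forkhead factors bind DNA through a winged-helix domain whose usual target is a core of the kind TGTTTAC. FoxA proteins are pioneer factors that open chromatin at endoderm genes, FoxH1 carries activated Smads to Nodal target genes, and FoxC and FoxF proteins act in mesoderm, vessels and gut mesenchyme. FoxO proteins are held in the cytoplasm by insulin signalling through Akt, and FoxM1 drives genes of mitosis in dividing cells.

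The motif TGTTTAC was searched on both strands of promoters running from 250 bases before to 50 bases after each start site, in RefSeq sequences of build GRCm38.p6. Of the 35 genes 21 had a promoter in that table, 26 promoters in all. A single one of these, that of Foxa1, held the motif, or 3.85% of forkhead promoters against 3.65% of all 32851 promoters. The match lies on the strand opposite the gene, its first base 141 bases before the start site, and a match describes letters and shows no binding. Foxa1 had the highest forkhead readings in Nkx2.5 over Rex1 among the genes' brightest probes, and Foxa2 carried the only passing probe of the 45. The 250 bases before this start site of Foxa1 and before the most upstream start site of Foxa2 are therefore shown. Both are written 5′ to 3′ on the minus strand that carries each gene, and capitals mark the motif as read on that strand. The Foxa1 stretch is chr12:57546112-57546361 and the Foxa2 stretch, which held no match, is chr2:148046970-148047219.
Foxa1: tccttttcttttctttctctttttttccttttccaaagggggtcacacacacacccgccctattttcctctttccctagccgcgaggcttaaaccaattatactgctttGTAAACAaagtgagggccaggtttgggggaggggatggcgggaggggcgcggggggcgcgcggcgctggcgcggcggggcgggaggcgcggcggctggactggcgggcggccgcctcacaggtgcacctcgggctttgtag
Foxa2: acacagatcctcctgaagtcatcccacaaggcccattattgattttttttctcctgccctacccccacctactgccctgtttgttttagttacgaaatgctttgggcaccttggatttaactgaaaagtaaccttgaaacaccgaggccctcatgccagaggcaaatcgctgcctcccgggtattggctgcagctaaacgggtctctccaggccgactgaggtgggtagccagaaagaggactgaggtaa

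Because the 5 arrays link the populations in triangles, every ratio could be had along at least 2 paths. The first reading was the log2 ratio on the array of the pair itself, and the second was summed from the other arrays of the triangle. Nkx2.5 over Rex1 lies in both triangles, and its second reading was the mean of the sums through Bra and through Flk1. Flk1 over Bra had no array of its own and was read through Rex1 and through Nkx2.5. A gene passed when both readings reached 1 on the log2 scale, a 2-fold difference, with the same sign, and when the brighter population was well above background, that is above percentile 95 of 96 negative control spots on at least 1 of its arrays. Each pair was hybridised once with no dye exchange, and no difference was tested. The measure of error was the gap between both paths, which holds the spread between arrays and any dye effect. It may not show the spread between cultures. The gap between both paths had an SD of 0.39 for the Bra triangle and 0.44 for the Flk1 triangle over 24248 genes. If the arrays of a triangle err independently, this corresponds to an error of 0.24 for 1 array. Over the forkhead genes the SDs were 0.33 and 0.35. On any 1 array dye and population cannot be told apart, and Rex1 and Nkx2.5 each kept 1 dye throughout. In these bulk RNAs fewer cells of a type and less RNA per cell cannot be told apart either.

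The populations bore their labels to differing degrees. Zfp42 read -1.74 and -1.18 in Bra over Rex1 and -1.68 and -2.25 in Nkx2.5 over Rex1, whereas T, Kdr and Nkx2-5 had the sign of their labels against Rex1 without reaching 1 in both readings. Of 4 cardiomyocyte markers 3 passed as higher in Nkx2.5 over Rex1, where 2.51% of all genes did. Of 5 pluripotency markers 3 passed as lower in each population against Rex1. Over all genes 55 of 23584 passed as lower in Bra over Rex1, 66 of 23707 in Flk1 over Rex1 and 0.726% in Nkx2.5 over Rex1. The share of probes above background was 77.6% to 84.4% in the Rex1 channels and 90.2% to 95.2% in the others. No forkhead spot was marked as bad on any array.

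None of the 35 forkhead genes passed in any of the 6 comparisons. The background of genes that passed in either direction was 1.45% in Bra over Rex1, 1.0% in Flk1 over Rex1, 3.24% in Nkx2.5 over Rex1 (2.51% as higher and 0.726% as lower), 0.348% in Nkx2.5 over Bra, 0.393% for the Nkx2.5 and Flk1 array and 0.0251% in Flk1 over Bra. A count of 0 among 35 genes is therefore close to the background in each comparison. The family was measurable, and its probes had a median level of 11.7 log2 units against 11.4 for all genes. On every Rex1 array 30 of 35 members were above background, against 74.8% of all genes. On both Bra arrays 34 were, against 88.5%, and on both Flk1 arrays 33, against 89.0%. All 35 were above background on every Nkx2.5 array, against 90.4% of all genes.

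The forkhead log2 ratios centred near 0. Their median first and second readings were -0.02 and 0.05 in Bra over Rex1, -0.05 and 0.01 in Flk1 over Rex1, and 0.01 and -0.03 in Nkx2.5 over Rex1. Between the later populations the medians ran from -0.01 to 0.11, and the medians of all genes lay within 0.02 of 0 in every comparison. The SD across the 35 genes was 0.363 on the Bra over Rex1 array, 0.371 on the Flk1 over Rex1 array and 0.421 on the Nkx2.5 over Rex1 array, against 0.417, 0.427 and 0.467 for all genes. It was 0.206 on the array of Nkx2.5 with Bra and 0.292 on that of Nkx2.5 with Flk1, against 0.233 and 0.316. On all 5 arrays the family thus spread less than all genes did, a difference given as a description. By another measure the order was reversed, since 42.9% of members against 49.7% of all genes had all 12 readings within 0.5 of 0. A single ratio of the standing probes on a single array reached 2-fold, that of Foxp2 on Nkx2.5 over Rex1.

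**Figure D1:**
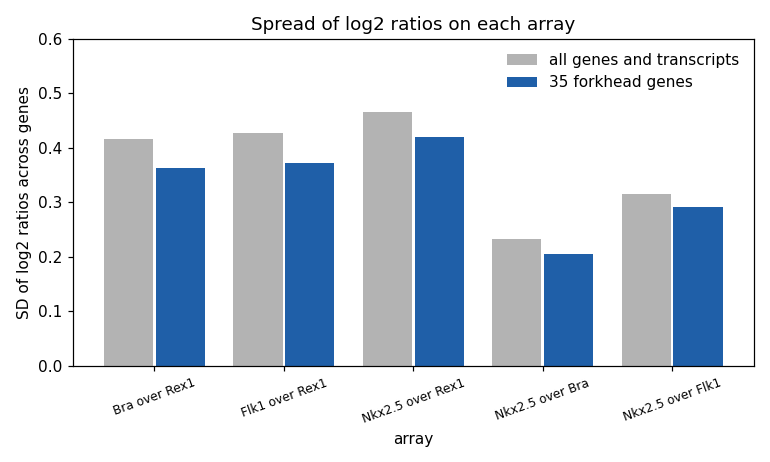
Bars show the SD of log2 ratios across genes on each array, in grey for all genes and transcripts and in blue for the 35 forkhead genes. The forkhead bar is shorter on each of the 5 arrays, for example 0.421 against 0.467 on Nkx2.5 over Rex1.

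At a looser threshold of 1.5-fold in both readings, 5 of 35 forkhead genes (14.3%) passed in Nkx2.5 over Rex1 against 9.02% of all genes. They were Foxa1 and Foxm1 as higher, where 5.97% of all genes passed, and Foxp2, Foxi1 and Foxn1 as lower, where 3.05% did. In Bra over Rex1 1 gene passed, Foxp2 as lower (2.86% of members against 4.91% of genes in either direction and 1.41% as lower), and the same gene was the one to pass in Flk1 over Rex1 (2.86% against 4.16% and 1.45%). In Nkx2.5 over Bra 1 gene passed, Foxi1 as lower (2.86% against 1.25% and 0.477%). The Nkx2.5 and Flk1 array gave 2 (5.71% against 1.74%), Foxa1 as higher beside a background of 1.12% and Foxi1 as lower beside 0.628%. In Flk1 over Bra 0 passed, with a background of 0.343%. No test of these shares against the background was made. The counts depended on the background correction. Without background subtraction 0 passed at 1.5-fold in every comparison, and the SD of all genes on Nkx2.5 over Rex1 fell to 0.131. In Nkx2.5 over Rex1 3 passed, Foxa1, Foxm1 and Foxp2, with subtracted signals under 1 left out and in the authors' deposited table, and Foxi1 passed against Bra in neither.

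**Figure D2:**
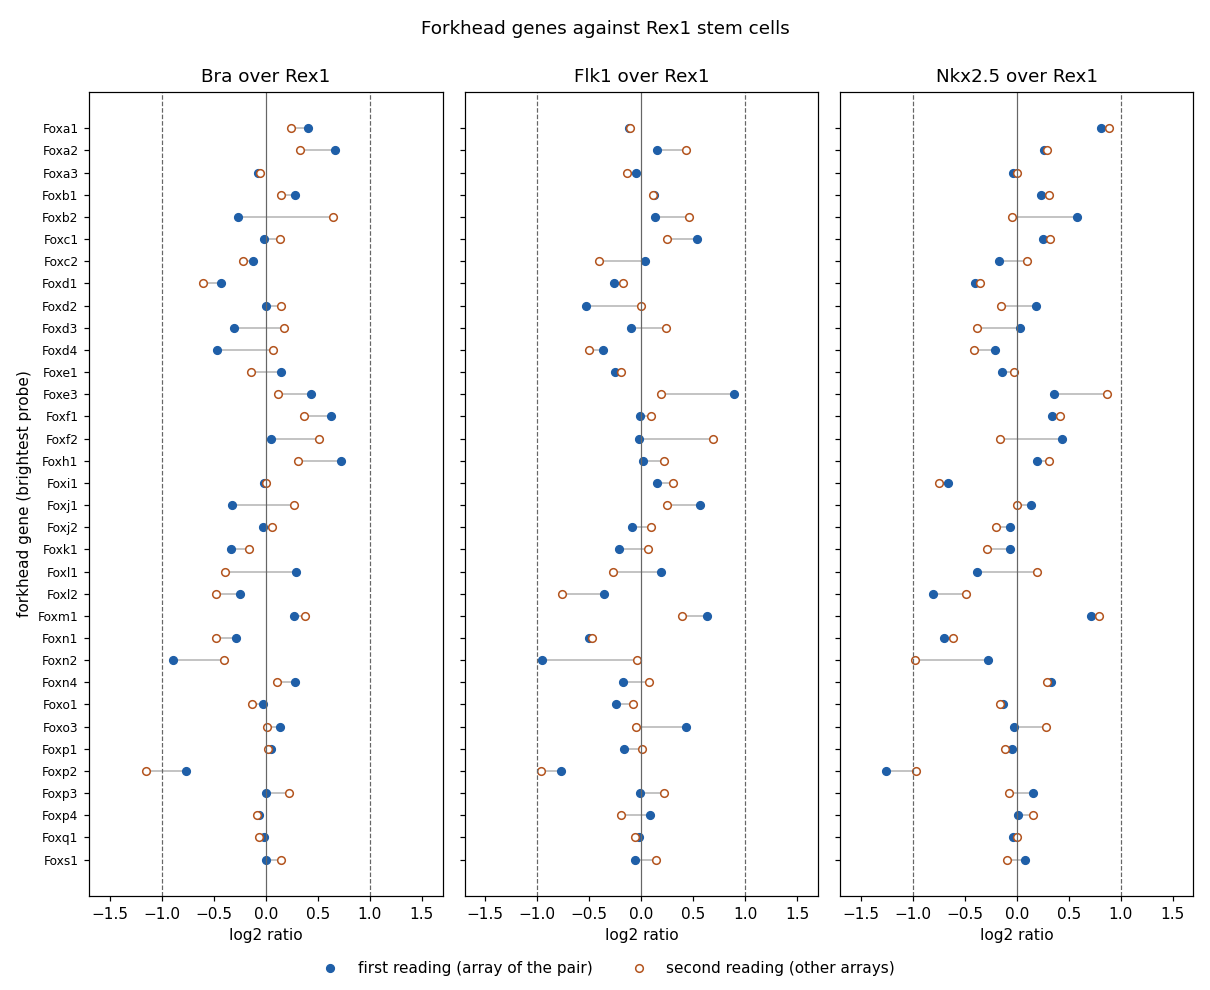
Each row is a forkhead gene (all but 1 of the 35), with its log2 ratio against Rex1 on the array of the pair (filled) and from the other arrays (open) in 3 panels, and dashed lines mark 2-fold. Most points lie between -0.5 and 0.5, Foxp2 sits left in every panel, and Foxa1 and Foxm1 sit right in the Nkx2.5 panel with their readings close together.

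Among the endoderm and node factors, the FoxA genes had unlike patterns. Foxa1, a pioneer factor of endoderm and its organs, had a normalised level of 10.81, 10.73 and 10.96 log2 units in the 3 Rex1 channels, 11.22 and 11.20 in the Bra channels, 10.61 and 10.72 in the Flk1 channels and 11.77, 11.77 and 11.65 in the Nkx2.5 channels. Every Nkx2.5 channel was above every other channel and every Flk1 channel below every other, so no pair of populations overlapped, although Flk1 and Rex1 nearly met. Over all genes 2.84% had Nkx2.5 above all other channels and 1.05% had Flk1 below them. Its log2 ratios were 0.81 and 0.89 in Nkx2.5 over Rex1, 0.93 and 0.93 in Nkx2.5 over Flk1, and 0.57 and 0.41 in Nkx2.5 over Bra. In Flk1 over Bra they were -0.53 and -0.35, and in Flk1 over Rex1 -0.12 and -0.11. The triangles of Foxa1 closed to 0.16 through Bra and -0.01 through Flk1, well within the SD over all genes, and the gene still stayed short of 2-fold in every reading. Without background subtraction its ratios in Nkx2.5 over Rex1 were 0.24 and 0.28.

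Foxa2, which marks definitive endoderm, node and floor plate, was carried by 2 probes that gave different answers. Its brighter probe read 11.83, 11.86 and 11.95 log2 units in Rex1, 12.50 and 12.12 in Bra, 12.01 and 11.90 in Flk1, and 12.21, 12.06 and 11.74 in Nkx2.5. The Bra channels lay above those of Rex1 and Flk1 and every other pair overlapped, and the Bra over Rex1 ratios were 0.66 and 0.33. In Nkx2.5 over Rex1 this probe read 0.27 and 0.29, but -0.09 and -0.16 without background subtraction, and in Flk1 over Bra its readings, -0.52 and 0.10, differed in sign. The dimmer probe read 10.47, 10.69 and 9.83 log2 units in Rex1, 11.67 and 11.46 in Bra, 11.07 and 10.82 in Flk1, and 10.87, 11.69 and 11.39 in Nkx2.5. All its Rex1 channels were below every channel of the other populations, as for 6.23% of all genes and for none of the 35 standing probes. Its log2 ratios were 1.20 and 0.81 in Bra over Rex1, 0.38 and 0.47 in Flk1 over Rex1, and 1.04 and 1.19 in Nkx2.5 over Rex1, the last of which passed. No other of the 45 forkhead probes did so, against 2.84% of 27954 probes that passed as higher there. This dimmer probe was above background in Rex1 on 2 of 3 arrays. Its lowest Rex1 level, 9.83 log2 units, was on the Nkx2.5 over Rex1 array, which gave the first reading of 1.04. Whether Foxa2 exceeded 2-fold therefore depended on the probe that stood for it.

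Foxa3, the FoxA gene of liver and gut, had no reading above 0.14 in size. Of 14 genes known to work with or downstream of FoxA2, 3 passed as higher in Bra over Rex1, 5 in Nkx2.5 over Rex1, 3 against Bra and 2 against Flk1 in the Nkx2.5 cells, and none passed as lower in any comparison. Over all genes 288 of 23584 passed as higher in Bra over Rex1 and 606 of 24104 (2.51%) in Nkx2.5 over Rex1. In the Nkx2.5 cells 69 of 24129 did so against Bra and 74 of 24188 against Flk1. The list median in Nkx2.5 over Rex1 was 0.25 in both readings against 0.01 for all genes. Sox17, an endoderm regulator, read 1.24 and 1.19 in Bra over Rex1 and 1.34 and 1.82 in Nkx2.5 over Rex1. Ttr, a carrier protein of visceral endoderm and liver, read 1.98 and 1.83 in Nkx2.5 over Rex1 and 1.73 and 1.54 in Nkx2.5 over Bra. Spink1, a trypsin inhibitor of gut endoderm, read 2.37 and 1.48 in Nkx2.5 over Rex1. Afp and Shh passed there as well, but were not well above background in Rex1 on any array. Shh also passed in Bra over Rex1, at 1.05 and 1.55, with Bra above background on 1 of 2 arrays. Hnf4a, a regulator of liver and visceral endoderm, read -0.15 and -0.19 in Nkx2.5 over Rex1, and Alb, the albumin gene, read -0.18 and -0.40.

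Markers of other cell types were set beside the FoxA readings. Of 8 markers of definitive and visceral endoderm 4 passed as higher in Nkx2.5 over Rex1, where 2.51% of all genes did. In Bra over Rex1 2 passed as higher, beside 288 of 23584 of all genes. The summed level of the 8 on the log2 scale was 14.05 in Rex1, 14.50 in Bra, 14.45 in Flk1 and 15.30 in Nkx2.5. Hnf4a, Apoa1, Cer1 and Amn, a receptor subunit of visceral endoderm, did not pass in Nkx2.5 over Rex1. Amn read 0.05 and -0.25 there, Apoa1 0.25 and 0.63, and Cer1 0.24 and 0.14. Apoa1 read -0.56 and -1.23 in Nkx2.5 over Flk1, and Cer1 read -0.97 in both readings of Nkx2.5 over Bra. Ttr had the highest mean level of the 8 in Nkx2.5, 14.01 log2 units against 10.93 in Rex1. None was below background in Bra, Flk1 or Nkx2.5, and 2 were in Rex1. Foxa1 was highest in Nkx2.5 and lowest in Flk1, and the brighter Foxa2 probe was highest in Bra. The summed level of 4 blood markers was 14.60 in Rex1, 14.57 in Bra, 14.58 in Flk1 and 15.74 in Nkx2.5, where Hbb-y, an embryonic globin, passed at 2.57 and 2.19 over Rex1. That of 6 neural markers was 15.02 to 15.05 in every population with none passing, where at most 3.24% of all genes did. The part of endoderm or other cell types in the FoxA readings was not tested.

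Foxh1, the Smad partner in Nodal signalling, read 11.65, 11.94 and 11.72 log2 units in Rex1, 12.37 and 12.26 in Bra, 11.95 and 12.54 in Flk1, and 11.92, 12.15 and 12.52 in Nkx2.5. The Bra channels, and by a hair the Flk1 channels, lay above all Rex1 channels, and the Nkx2.5 channels overlapped all others. Its Bra over Rex1 ratios were 0.72 and 0.30, its Flk1 over Rex1 ratios 0.01 and 0.21 and its Nkx2.5 over Rex1 ratios 0.20 and 0.31, and the Bra triangle missed closure by 0.42. Among 12 measured genes of the Nodal axis, 1 passed as higher in Bra over Rex1 and 1 as lower in Nkx2.5 cells against both Bra and Flk1. Over all genes 288 of 23584 passed as higher in Bra over Rex1. As lower, 15 of 24129 passed in Nkx2.5 over Bra and 21 of 24188 in Nkx2.5 over Flk1. Cer1, a secreted Nodal and BMP antagonist, read 1.21 in both readings of Bra over Rex1. Mixl1, a homeobox gene of the primitive streak, read -1.08 and -1.5 in Nkx2.5 over Bra, and -1.45 and -1.27 in Nkx2.5 over Flk1. The axis had medians of 0.34 and 0.33 in Bra over Rex1 and of -0.48 and -0.51 in Nkx2.5 over Bra, where all genes had medians near 0.

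On their brightest probes the 3 members tied to pluripotency had no reading of 0.5 in size in any comparison. Foxd3, needed to keep the early embryo's pluripotent cells, read 12.44 to 12.71 log2 units in Rex1, 12.40 to 12.42 in Bra, 12.34 to 12.36 in Flk1 and 12.15 to 12.65 in Nkx2.5. Its readings against Rex1 changed sign between routes in each comparison, for example -0.31 and 0.18 in Bra over Rex1. Foxo1 and Foxp1 had no reading above 0.25 in size on those probes. The other probe of Foxp1, above background on every array, read -0.53 and -0.39 in Bra over Rex1 and 0.34 and 0.48 in Nkx2.5 over Bra. The 5 pluripotency markers had median ratios of -1.80 and -2.09 in Nkx2.5 over Rex1. Of these 3 passed as lower there, against 0.726% of all genes. Pou5f1 read only -0.37 and -0.32 there, and Nanog read -1.76 and -0.73. The difference between the lists was not tested.

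For mesoderm, vessels and heart 11 forkhead genes were listed, and 0 of 11 passed in any comparison. Their median readings were -0.02 and 0.05 in Bra over Rex1, -0.02 and 0.06 in Flk1 over Rex1 and 0.01 and -0.09 in Nkx2.5 over Rex1. Foxf1, a factor of lateral plate and gut mesenchyme, read 0.63 and 0.37 in Bra over Rex1 and 0.34 and 0.42 in Nkx2.5 over Rex1, but its Rex1 channels ranged from 10.07 to 11.74 log2 units. Foxc1, which acts in vessels and the outflow tract, read 0.53 and 0.25 in Flk1 over Rex1 and -0.02 and 0.13 in Bra over Rex1. Its partner Foxc2 stayed within 0.41 of 0 in every reading of its brighter probe. Its dimmer probe, not well above background in Rex1 on any array, read -0.82 and -0.13 in Nkx2.5 over Rex1 and -0.17 and -0.90 in Flk1 over Rex1. Foxd1, a gene of kidney stroma, was negative against Rex1 throughout, with -0.43 and -0.61 in Bra over Rex1. The standing probes of Foxp4, Foxs1 and Foxj2 had no reading above 0.21 in size, while the other probe of Foxp4 read 0.31 and -0.05 in Bra over Rex1.

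Of 13 genes that FoxC and FoxF factors are known to act on or with, 2 passed as higher in Bra over Rex1, 2 as higher and 1 as lower in Flk1 over Rex1, 2 as higher in Nkx2.5 over Rex1 and 1 as lower in Nkx2.5 over Bra. Over all genes 288 of 23584 passed as higher in Bra over Rex1, and 2.51% in Nkx2.5 over Rex1. In Flk1 over Rex1 171 of 23707 passed as higher and 66 as lower, and in Nkx2.5 over Bra 15 of 24129 passed as lower. Etv2, a regulator of blood and endothelial progenitors, read 1.13 and 1.32 in Flk1 over Rex1. Fgf8, a growth factor of streak and heart field, read 2.36 and 1.72 in Bra over Rex1 and -1.17 and -1.81 in Nkx2.5 over Bra, with Rex1 above background on 1 of 3 arrays. Isl1, a second heart field gene, read 1.06 and 1.45 in Nkx2.5 over Rex1, and Bmp4 read -1.04 and -1.23 in Flk1 over Rex1.

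Several mesodermal members are neighbours in the genome. In the RefSeq order of protein-coding genes Foxf2 adjoins Foxq1 on one side and lies next to Foxc1 on chromosome 13, Foxc2 adjoins Foxl1 near Foxf1 on chromosome 8, and Foxd2 adjoins Foxe3 on chromosome 4. In Bra over Rex1 the first readings of Foxf1, Foxc2 and Foxl1 ran from -0.12 to 0.63, and their second readings from -0.39 to 0.37. The first readings of Foxq1, Foxf2 and Foxc1 ran from -0.02 to 0.04 there and the second from -0.06 to 0.51. In Flk1 over Rex1 the latter group ran from -0.02 to 0.53 and from -0.06 to 0.69. How alike neighbours looked thus differed between the routes, and no gene of them passed.

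Of the members tied to nerve cells, placodes and ectoderm, none of 10 passed at 2-fold. Foxp2, a factor of neurons and lung, read 10.66, 10.62 and 10.73 log2 units in Rex1, 9.89 and 9.81 in Bra, 9.85 and 10.33 in Flk1, and 9.48, 9.70 and 10.04 in Nkx2.5. Every Rex1 channel was above every other channel, as it was for 3 of 35 members (8.57%) and 5.36% of all genes. Its log2 ratios against Rex1 were -0.77 and -1.15 for Bra, -0.77 and -0.96 for Flk1, and -1.25 and -0.97 for Nkx2.5. In each comparison 1 reading or both fell short of 2-fold, and the count for Nkx2.5 over Rex1 turned to 1, Foxp2 as lower, with median centring in place of loess and with a joint fit of all arrays. Without background subtraction the Nkx2.5 over Rex1 ratios were -0.19 and -0.27. Between Bra, Flk1 and Nkx2.5 its readings ran from -0.48 to 0.19. The other members with Rex1 above every other channel were Foxn2 and Foxd4. On this probe Foxd4 read -0.47 and 0.07 in Bra over Rex1, with unlike signs. Its other probe went the opposite way, with its lowest mean level in Rex1 (9.78 log2 units) and 0.80 and 0.72 in Nkx2.5 over Rex1.

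Foxi1, known for the inner ear and for ion-transporting cells of the kidney, was lowest in Nkx2.5. It read 11.25, 11.29 and 11.72 log2 units in Rex1, 11.23 and 11.45 in Bra, 11.44 and 11.48 in Flk1, and 11.06, 10.78 and 10.50 in Nkx2.5. All Nkx2.5 channels were below all others, as for 2.66% of all genes, while Rex1, Bra and Flk1 overlapped. The log2 ratios were -0.67 and -0.75 in Nkx2.5 over Rex1, -0.67 and -0.65 against Bra and -0.97 and -0.82 against Flk1. Its triangles closed to -0.02 and -0.16, and without background subtraction the ratios over Rex1 were -0.08 and -0.10. Nkx2.5 RNA carried the same dye on all 3 arrays, so the readings on its own arrays share 1 dye. The second readings against Bra and Flk1, -0.65 and -0.82, each compare 2 Cy5 channels, both set against Rex1 in Cy3. A dye effect on Foxi1 was not tested.

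Foxn1, the gene of thymic epithelium and hair, read -0.70 and -0.61 in Nkx2.5 over Rex1, -0.50 and -0.48 in Flk1 over Rex1 and -0.28 and -0.48 in Bra over Rex1. Foxe3, a lens gene, illustrates the opposite case of readings that did not meet. It read 0.89 and 0.19 in Flk1 over Rex1 and 0.36 and 0.87 in Nkx2.5 over Rex1, and its Flk1 triangle missed closure by 0.70. Foxb2 similarly read -0.27 and 0.65 in Bra over Rex1. Foxq1 was the flattest member of the family, with no reading above 0.06 in size at a mean level of 12.2 log2 units, and Foxb1 and Foxe1 stayed within 0.31 and 0.40.

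**Figure D3:**
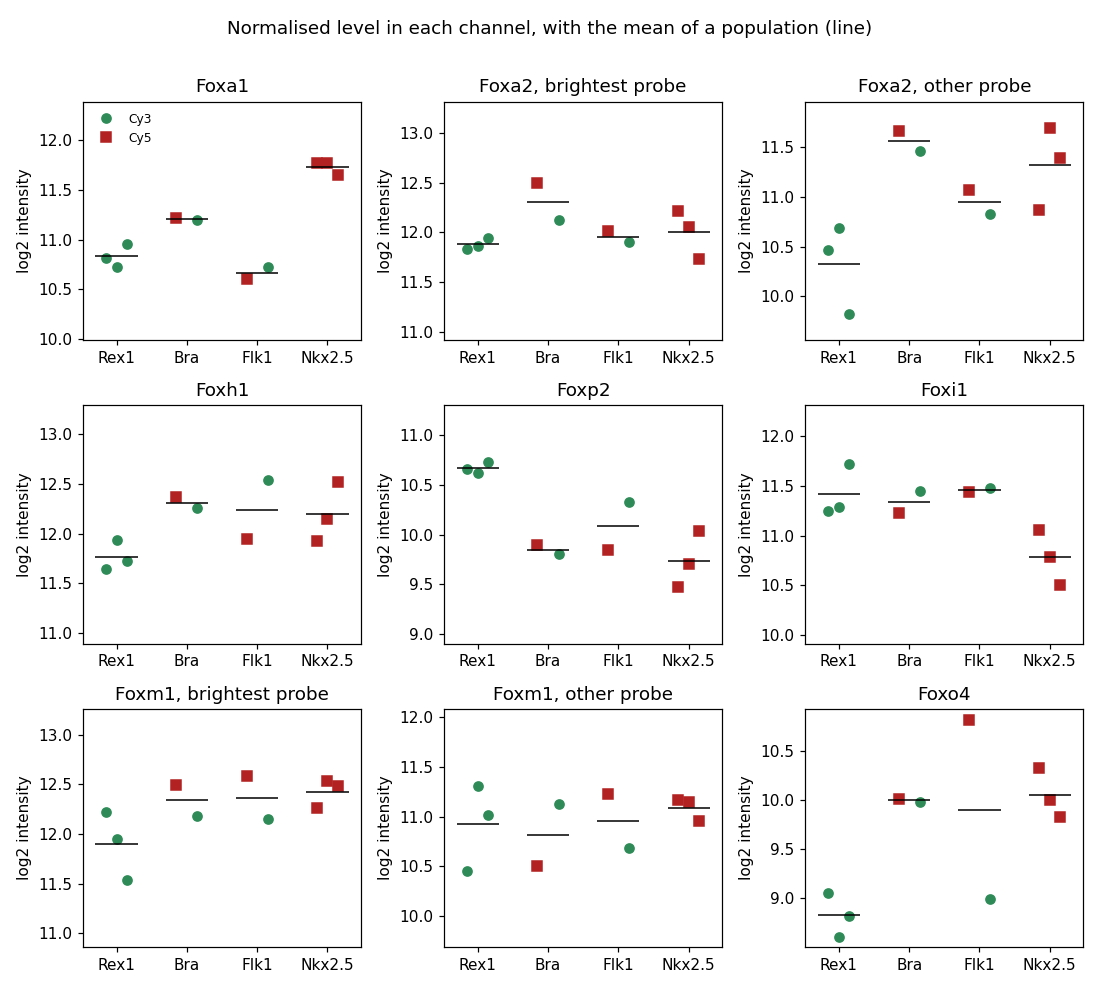
Normalised log2 intensity of 9 probes in each channel, grouped by population, with green circles for Cy3, red squares for Cy5 and a line at the mean of a population's channels, which are not counted as replicates. Foxa1 stands highest in Nkx2.5 (11.65 to 11.77), Foxp2 highest in Rex1 (10.62 to 10.73) and Foxi1 lowest in Nkx2.5 (10.50 to 11.06), and the probes of Foxa2 and of Foxm1 differ in pattern.

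Foxm1, the driver of mitotic genes, was also measured by 2 probes. The brighter read 12.22, 11.95 and 11.54 log2 units in Rex1, 12.49 and 12.18 in Bra, 12.58 and 12.15 in Flk1, and 12.26, 12.53 and 12.48 in Nkx2.5. The Nkx2.5 channels lay above all Rex1 channels and overlapped those of Bra and Flk1. Log2 ratios of this probe were 0.72 and 0.79 in Nkx2.5 over Rex1, 0.63 and 0.39 in Flk1 over Rex1 and 0.27 and 0.37 in Bra over Rex1. Without background subtraction it read 0.06 and 0.02 in Nkx2.5 over Rex1. The other probe read 0.15 and 0.12 in Nkx2.5 over Rex1 and -0.09 and -0.11 in Flk1 over Rex1. None of 14 FoxM1 target genes passed in any comparison, where 0.0251% to 3.24% of all genes did. Their medians in Nkx2.5 over Rex1 were -0.14 and -0.01. Cenpf, a kinetochore gene, read 0.36 and 0.35 there, while Aurkb, a mitotic kinase, read -0.63 and -0.25.

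Foxo1 and Foxo3, which respond to insulin and stress, stayed within 0.24 and 0.46 of 0 in every reading. Foxo4, a FoxO gene outside the naming rule, is given at the end. Foxo3 read 0.43 and -0.05 in Flk1 over Rex1, so its largest positive ratio there was not met by the other route. None of 10 kinases and phosphatases upstream of FoxO passed in any comparison, where 0.0251% to 3.24% of all genes did. Of 16 FoxO target genes 2 passed as higher in Nkx2.5 over Rex1, where 2.51% of all genes did, and none in the other 5 comparisons. Cdkn1a, the p21 inhibitor of the cell cycle, read 1.19 and 1.16 there, and Fbxo32, a muscle ubiquitin ligase, passed with Rex1 not well above background on any array. Sod2, a mitochondrial enzyme against superoxide and likewise a target, read -0.61 and -0.78.

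The remaining members gave few readings that both routes shared. Foxj1, the switch gene of motile cilia, read 0.56 and 0.25 in Flk1 over Rex1 and -0.33 and 0.27 in Bra over Rex1. None of 7 measured cilia targets passed in any comparison, where 0.0251% to 3.24% of all genes did. Foxn4, a gene of retina and spinal cord, read 0.33 and 0.29 in Nkx2.5 over Rex1. Foxl2, the ovary factor, read -0.81 and -0.49 in Nkx2.5 over Rex1 and -0.36 and -0.77 in Flk1 over Rex1. Foxp3, which defines regulatory T cells, stayed within 0.22 of 0. Foxn2 read -0.90 and -0.40 in Bra over Rex1, -0.96 and -0.04 in Flk1 over Rex1 and -0.27 and -0.98 in Nkx2.5 over Rex1, and its Flk1 triangle missed closure by -0.92. That gap is as large as any of its ratios but 2.

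In all, 15 members (42.9%) had all 12 readings within 0.5 of 0, against 49.7% of all genes. Of these 8, namely Foxq1, Foxa3, Foxs1, Foxj2, Foxp4, Foxp1, Foxp3 and Foxo1, stayed within 0.25. These counts rest on each gene's brightest probe, and the other probes of Foxp1 and Foxp4 passed 0.25 in size. Over all genes 15.9% had all 12 readings within 0.25. The standing probes of these 8 genes were above background on every array in every population.

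Probes for the same gene gave a further measure of error. Of the members 9 had more than 1 probe, 8 with 2 and Foxk1 with 3. The probes of a gene had opposite signs for 5 of 9 genes on Bra over Rex1, 6 on Flk1 over Rex1, 3 on Nkx2.5 over Rex1, and for 6 and 3 genes on the arrays of Nkx2.5 with Bra and with Flk1. The median range between probes was 0.402 on Bra over Rex1 and 0.412 on Nkx2.5 over Rex1, close to the SD of the family there. The widest was that of Foxd4 on Flk1 over Rex1, where its probes read -0.37 and 0.94, a range of 1.31. The next widest was again that of Foxd4, 1.01 on Nkx2.5 over Rex1, and every other range between probes was 0.812 or less.

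**Figure D4:**
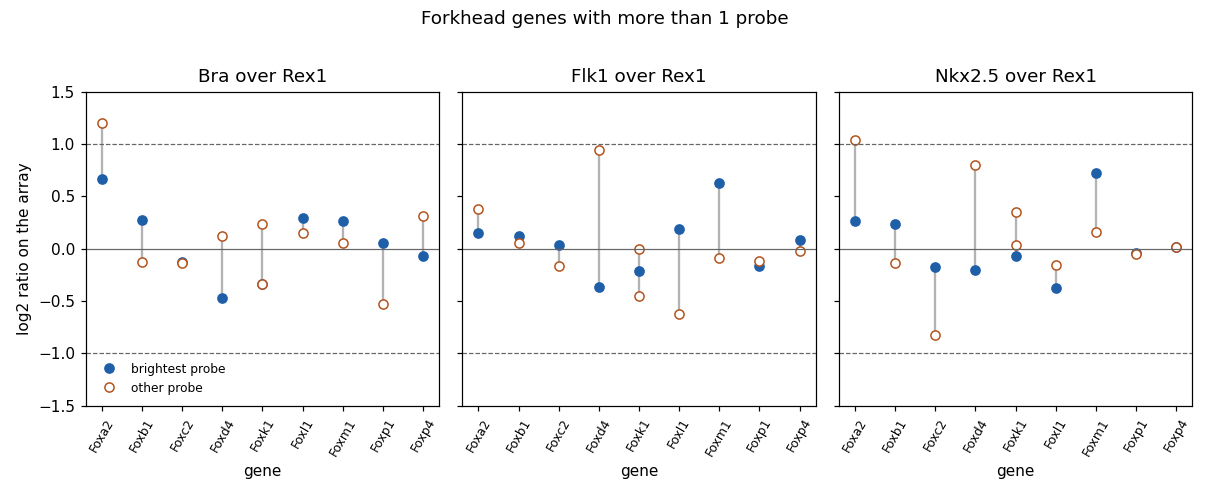
Log2 ratios against Rex1 of each probe of the 9 forkhead genes with more than 1 probe, on the 3 arrays that carried Rex1, with the brightest probe filled, the others open and dashed lines at 2-fold. Foxa2 crosses 2-fold only with its dimmer probe (1.20 and 1.04), and the probes of Foxd4 and Foxm1 lie far apart on the Flk1 and Nkx2.5 arrays.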

How the data were processed

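The deposited scanner files give, per the file headers, the intensity of each spot as a median signal with its block background in both channels, and a ratio of Cy5 over Cy3. The series table deposited by the authors holds log2 values. Each of its columns differed from the scanner's log2 ratio by 1 constant, within a range of 1.00e-06. Column medians for Bra, Flk1 and Nkx2.5, each against Rex1, were -0.0846, -0.0599 and -0.0578, and those for Nkx2.5 against Bra and Flk1 were -0.00732 and -0.0728. Total RNA was amplified with amino allyl nucleotides before dye coupling, per the labels' protocols. Scanner software: not given in the sources used here.

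Foreground was rebuilt as the median signal plus its background. The normexp method (offset 50) corrected it, and loess normalised each array, in limma 3.58.1 under R 4.3.3. Channel levels also had Aquantile normalisation between arrays. Tables were made in Python 3.11.15. RefSeq (GRCm38.p6) supplied current names, with 27 forkhead probes matched by accession, 17 by symbol and 1 by synonym. The brightest probe stood for a gene. The rule was run on simulated data whose changes lay well above the threshold, with no dye effect. That run does not show how the rule behaves near 2-fold. Genes given in full were Foxa2, any member that passed, members with both readings at 0.5 in size and of 1 sign in any comparison, and members that go against their role list. Others named were chosen after their values were seen. The members and the gene lists were chosen with earlier results of these data known. 1 member enters the counts but is not reported here by itself. Each pair was hybridised once, and no test was made. Other settings covered background, normalisation, filter, probe choice and threshold.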

Additional observations from a re-analysis of the deposited data

How the results depend on the processing

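The count of forkhead genes that passed stayed at 0 in all 6 comparisons with no background subtraction, with background-subtracted signals under 1 left out, at a normexp offset of 16, in the authors' deposited table, at percentile 99 of the negative controls, without the background filter and with the mean of probes. In Nkx2.5 over Rex1 it became 1 with median centring and 1 with a joint least squares fit (Foxp2 as lower in both), and 1 with the dimmest probe of each gene (Foxa2 as higher), a setting chosen after seeing the data. At 1.5-fold the counts were 1 in Bra over Rex1, 1 in Flk1 over Rex1, 5 in Nkx2.5 over Rex1, 1 in Nkx2.5 over Bra and 2 in Nkx2.5 over Flk1, since the threshold is lower. At 1.5-fold, combined with other settings after seeing the data, they became 0 in all of these without background subtraction. They were 3 in Nkx2.5 over Rex1 and 0 in Nkx2.5 over Bra both with signals under 1 left out and in the authors' deposited table. The joint fit, which asks for 1 value in place of 2 readings, gave 2 in Bra over Rex1, 3 in Flk1 over Rex1 and 8 in Nkx2.5 over Rex1. The dimmest probe gave 2 in Bra over Rex1 and 6 in Nkx2.5 over Rex1, where Foxa2 and Foxd4 were gained as higher and Foxm1 was lost. Without background subtraction all ratios shrank: the SD of the family fell to between 0.0751 and 0.103 on the 5 arrays and that of all genes to between 0.101 and 0.131. Then 57 of 84 readings of the named genes moved by more than the error of the arrays, and among the readings of genes that passed the second one of Foxo4 in Nkx2.5 over Rex1 reversed to -0.10. Of 72 readings of Foxa1, Foxa2, Foxi1, Foxm1, Foxn1 and Foxp2, none of which passed, 10 changed sign, among them both of Foxa2 in Nkx2.5 over Rex1 (-0.09 and -0.16), that of Foxa2 on the Flk1 over Rex1 array (-0.12) and that of Foxm1 on the Bra over Rex1 array (-0.06). The cause was not tested. No paired analysis was possible because each pair of populations was hybridised once. Signal over background limits the Rex1 channels most: the median ratio of net signal to background was 0.302 to 0.340 there and 0.597 to 1.5 in the other channels.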

Other observations

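Other forkhead genes lay outside the naming rule. Foxo4, a FoxO factor named Mllt7 in the array's files, read 9.05, 8.61 and 8.82 log2 units in Rex1, 10.01 and 9.98 in Bra, 10.82 and 8.99 in Flk1, and 9.83 to 10.32 in Nkx2.5. Rex1 was not well above background on any array, and the Flk1 channels lay far apart. The gene passed as higher in Nkx2.5 over Rex1 with log2 ratios of 1.5 and 2.01, against 2.51% of all genes. As a bound it was at least 1.03-fold higher in Nkx2.5, from a mean of 10.05 log2 units in Nkx2.5 against the limit of detection in Rex1, whose measured mean was 8.83. Flk1 over Rex1 read 2.20 and 0.66, and the Flk1 triangle missed closure by 1.54. Foxn3, named Ches1 in the files, read 0.24 in both readings of Bra over Rex1 and 0.22 and 0.04 in Nkx2.5 over Rex1. None of 8 unnamed transcripts that the files describe as forkhead passed in any comparison, where 0.0251% to 3.24% of all genes did.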
